A study of Danio rerio with 12 samples.

Results

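The genes described here are DNA repair genes of zebrafish, measured in macrophage-lineage cells sorted from the heads of larvae with or without a brain injury. Members were taken by gene name, with a pattern that covers the Fanconi anaemia genes, the recombination, mismatch, nucleotide excision, base excision and end joining factors, the ATM and ATR checkpoint genes and the poly(ADP-ribose) polymerases. The pattern found 76 of the 22962 genes in the deposited table, and 73 of them had a mean of at least 1 CPM over the 9 libraries and were tested. *fancm* at a mean of 0.998 CPM, *fancf* at 0.831 CPM and *msh4* at 0.775 CPM lay under this limit, and *xpa* at 2.01 CPM and *fancb* at 2.07 CPM were the members closest above it.

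The libraries came from larvae at 4 days post fertilisation (dpf) that carried the *mpeg1*:GFP transgene, in which the promoter of *mpeg1*, a macrophage gene, drives GFP in microglia and peripheral macrophages alike. In the 2 hpi group, the optic tectum had been pierced with a fine metal pin and cells were collected at 2 hours post injury (hpi), and the sham group had no such injury. Each library pooled GFP-positive cells from the heads of about 180 larvae. Values were present for 3 libraries at 2 hpi, numbered 1, 2 and 4, and for 6 sham libraries. The other 3 injured samples of the series are not analysed here. The authors left them out because of high duplication and low mapping rates and poor clustering with the other samples in a principal component analysis. The libraries kept at 2 hpi were thus chosen in part by their expression, which may narrow the spread behind the p-values.

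Repair genes fall into pathways that each recognise another kind of lesion. Base excision repair removes single damaged bases, nucleotide excision repair cuts out bulky lesions, mismatch repair corrects copying errors behind the replication fork, and the Fanconi anaemia pathway unhooks crosslinks between the strands. Double-strand breaks are joined directly by end joining at any stage of the cell cycle, or copied from the sister chromatid by homologous recombination in S and G2 phase. Several of these genes are known to be transcribed mainly in cycling cells, and larval microglia and macrophages can divide.

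Values are given in CPM, reads on a gene relative to the library's total, for which the authors scaled each library by a TMM factor that evens out differences in composition. CPM is not corrected for gene length, so levels are compared between groups and not between genes. Gene-assigned reads numbered 6754699 to 7156275 per library at 2 hpi and 6868772 to 8180104 in sham. The detection limit was set at 3 reads, or 0.44 to 0.466 CPM at 2 hpi and 0.349 to 0.423 CPM in sham, which covers counting error only. No pair of libraries within a group matched within counting noise (chi-square per gene of at least 8.04). Whether the pools came from separate clutches was not stated, so the p-values measure the spread between these libraries, which may be technical in part. Of 14 genes listed as markers of the macrophage lineage, none was at 0 in any library. Their summed level was 11500 to 12600 CPM at 2 hpi and 9670 to 11200 CPM in sham. Such levels do not measure the purity of the sort, and the sums of the neutrophil markers below were of similar size. On the log2 scale, 12 of the 14 were higher at 2 hpi and 2 were lower. Means at 2 hpi and in sham were 1890 and 1330 CPM for *spi1b*, and 865 and 1000 CPM for *csf1rb*, which was among the lower ones. Summed levels of 7 neutrophil markers were 9520 to 12600 CPM at 2 hpi and 8080 to 11400 CPM in sham, but these markers did not move together. Means at 2 hpi and in sham were 1850 and 417 CPM for *mmp9*, 3420 and 2040 for *mmp13a* and 367 and 321 for *lyz*. They were 3570 and 3930 CPM for *npsn*, 1750 and 2190 for *mpx*, 176 and 184 for *cpa5*, and 103 in both groups for *nccrp1*. Summed levels of 10 neuronal markers were 56.2 to 91.3 CPM at 2 hpi and 42.9 to 144 CPM in sham, with at most 2 of these 10 at 0 in a library. For 8 neural progenitor markers the sums were 95.5 to 136 CPM at 2 hpi and 110 to 152 CPM in sham. They were 97.4 to 151 and 76 to 169 CPM for 6 erythrocyte markers, and 330 to 420 and 291 to 358 CPM for 8 keratinocyte markers. The part of neutrophils, neurons and these other cells in the results below was not tested.

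DNA repair genes as a group lay lower at 2 hpi. Over the 73 genes tested, 60 had a log2FC (2 hpi over sham, on log2(CPM + 0.5)) below 0, which is 82.2%, against 52.0% of the 16347 genes tested in all. The median log2FC was -0.35, against -0.02 over all genes tested. Summed over the 76 members, the level was 1410, 1560 and 1560 CPM in replicates 1, 2 and 4 at 2 hpi, and 1880 to 1960 CPM in the 6 sham libraries, without overlap. In bulk RNA, fewer cells of a type and less RNA per cell cannot be told apart.

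With limma and Benjamini-Hochberg adjustment over all genes tested, 3 members fell with an FDR<0.01 and 0 rose, where 2.68% of all genes changed in either direction. They were *neil3*, *parp1* and *rad18*, which is 4.11% of the members, beside a background of 0.593% of all genes that fell. The 0 members that rose stand beside 2.09% of all genes, and 0 rose in edgeR, DESeq2 or limma-voom as well. At an unadjusted p below 0.05, 24 members were lower (32.9%, against 8.61% of all genes) and 2 were higher (2.74%, against 8.77%). All 3 libraries at 2 hpi lay below all 6 sham libraries for 13 members (17.8%, against 4.55% of all genes) and above them for 2 members (2.74%, against 5.68%). At the looser FDR<0.05, 8 members were lower, against 1.96% of all genes, and 1 was higher, against 3.55%.

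The number that passed FDR<0.01 depended on single libraries and on the test. It was 0 without replicate 1 at 2 hpi or without replicate 4 at 2 hpi, 1 without replicate 2 at 2 hpi or sham replicates 1, 2 or 4, and 3 without sham replicate 3, with *atm* in place of *rad18*. The number with a log2FC below 0 was 55 to 63 of 73 in these fits. When TMM factors were left out and libraries were scaled by their totals, the median of all genes moved to -0.13 and that of the members to -0.46, 57.4% in place of 77.9% of all calls were increases, and 7 members were called, all lower.

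**Figure D1:**
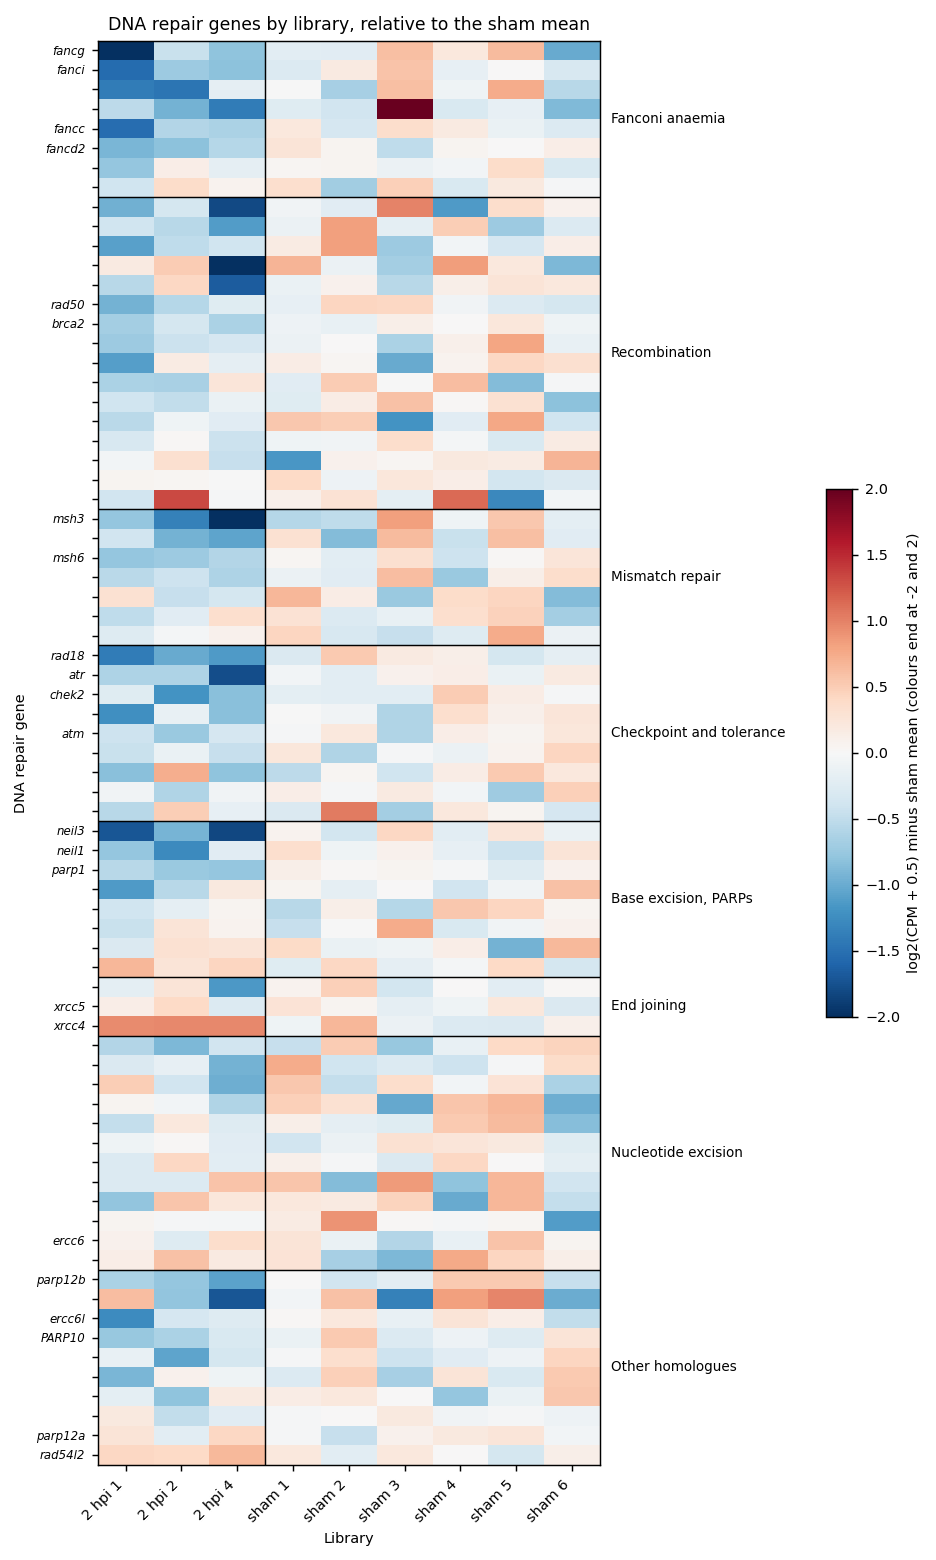
Colours give log2(CPM + 0.5) minus the sham mean for each of the 73 DNA repair genes tested (rows, by role and then by log2FC, with names for the genes taken by the naming rule) in each library (columns, 2 hpi left and sham right). Blue cells, below the sham mean, gather in the 2 hpi columns of the Fanconi anaemia, mismatch and checkpoint rows and are mixed with red in the nucleotide excision rows, while *xrcc4* is red in all 3 libraries at 2 hpi.

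Base excision and single-strand break repair held 2 of the 3 genes called. *neil3* (ENSDARG00000020079) encodes a glycosylase that removes oxidised bases and that, in frog egg extracts, also unhooks crosslinks at converged replication forks. Its level was 5.62, 9.94 and 5.13 CPM in replicates 1, 2 and 4 at 2 hpi, and 15 to 26.1 CPM in sham with a median of 19.1 CPM. The highest library at 2 hpi thus stayed below the lowest sham library. The log2FC was -1.49 (standard error 0.29, FDR = 0.0021 in limma), the lowest of all members, and the 3 libraries at 2 hpi rested on 37, 64 and 35 reads against 122 to 200 reads in sham (exact permutation test, two-sided, p = 0.0119, the smallest that 84 splits allow). Its call was lost without replicate 1 at 2 hpi (FDR = 0.0174), without replicate 4 at 2 hpi (FDR = 0.0231) and in limma-voom (FDR = 0.0133). It overlaps *aga* in the RefSeq annotation, which had a log2FC of -0.47 (FDR = 0.412 in limma), and the strand setting of the counting is not given in the sources used here.

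*parp1* (ENSDARG00000019529) encodes the enzyme that binds strand breaks and builds poly(ADP-ribose) chains on which XRCC1 assembles. It had 64.8, 56.8 and 55.7 CPM at 2 hpi, and 79.6 to 104 CPM in sham with a median of 98.1 CPM. Both groups were tight, with 59.1 ± 4.98 CPM at 2 hpi (SD, n = 3) and 95.8 ± 8.63 CPM in sham (SD, n = 6). The log2FC was -0.69 (standard error 0.14, FDR = 0.0045 in limma; exact permutation test, p = 0.0119). Its call was lost when replicate 1, 2 or 4 at 2 hpi or sham replicate 1, 2 or 4 was left out, with an FDR of at most 0.0333 and a log2FC of -0.76 to -0.65 over the 9 such fits. *parp1* overlaps *adorb1a* and a non-coding RNA gene in the RefSeq annotation, for which no values were found by name. The scaffold gene *xrcc1* had 37.1 ± 8.83 CPM at 2 hpi (SD, n = 3) and 38.8 ± 12.8 CPM in sham (SD, n = 6), a log2FC of -0.04 with a 95% interval of -0.52 to 0.45.

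Of the glycosylases beside *neil3*, *neil1* had 11.5, 8.07 and 17.2 CPM at 2 hpi, and 14.8 to 25.5 CPM in sham with a median of 20.2 CPM. Its groups overlapped, and the log2FC was -0.75 (95% interval -1.32 to -0.19, FDR = 0.123 in limma). *ogg1*, which removes oxidised guanine, had a log2FC of 0.46 (interval -0.23 to 1.14), and *unga*, which removes uracil, had 0.09 (interval -0.68 to 0.86). The values of *parp2* and *parp3*, which also respond to strand breaks, were -0.50 and -0.17 on the log2FC scale, and neither passed the test.

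The checkpoint and damage tolerance group had 9 genes tested, and all 9 had a log2FC below 0 (against 52% of all genes), with a median of -0.50. *rad18* (ENSDARG00000027938), the ubiquitin ligase that marks PCNA at stalled forks for translesion synthesis, was the other gene called. It had 7.14, 9.47 and 8.65 CPM at 2 hpi, and 15.2 to 28.3 CPM in sham with a median of 19.4 CPM. The groups did not overlap, and the log2FC was -1.18 (standard error 0.27, FDR = 0.00894 in limma; exact permutation test, p = 0.0119). This call was close to the threshold and was lost in 8 of the 9 fits that left out 1 library, with an FDR of at most 0.0545 and a log2FC of -1.27 to -1.08. It was kept without sham replicate 5, and it was lost with no filter on low genes (FDR = 0.015), in edgeR's quasi-likelihood test on the recovered reads (FDR = 0.0128) and in limma-voom (FDR = 0.0348).

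ATR and ATM are the kinases at the head of the damage response, the one activated by single-stranded DNA at stalled forks and the other by double-strand breaks. *atr* had 20.2, 20.3 and 8.80 CPM at 2 hpi, and 27.0 to 35.4 CPM in sham with a median of 31.7 CPM. Replicate 4 lay far under the other libraries at 2 hpi, and without it the log2FC of -1 (standard error 0.25, FDR = 0.017 in limma) was -0.62 (FDR = 0.167). *atm* had 81.5, 65.2 and 85.9 CPM at 2 hpi, and 72.0 to 128 CPM in sham with a median of 117 CPM. The overlap came from sham replicate 3 alone, and the log2FC of -0.50 (FDR = 0.101 in limma) was -0.62 without that library (FDR = 0.00945). Without any other library the FDR was 0.134 to 0.346, with a log2FC of -0.38 without replicate 2 at 2 hpi.

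Their partners and targets had smaller or less certain differences. *atrip*, the partner of ATR, had a log2FC of -0.34 (95% interval -0.87 to 0.19). *chek2*, the kinase downstream of ATM, had 13.4, 6.68 and 8.65 CPM at 2 hpi, all below the lowest sham value of 13.7 CPM, with a log2FC of -0.76 (FDR = 0.147 in limma). *chek1*, the kinase downstream of ATR, had 5.62, 17.4 and 5.72 CPM at 2 hpi and 7.10 to 15.1 CPM in sham. Replicate 2 at 2 hpi was the highest and replicates 1 and 4 the lowest of all 9 libraries for this gene. Of the clamp that RAD17 loads at damaged sites, *rad9a* and *rad1* had log2FC values of -0.25 and -0.07, and *rad17* itself had -0.73 (FDR = 0.191 in limma).

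**Figure D2:**
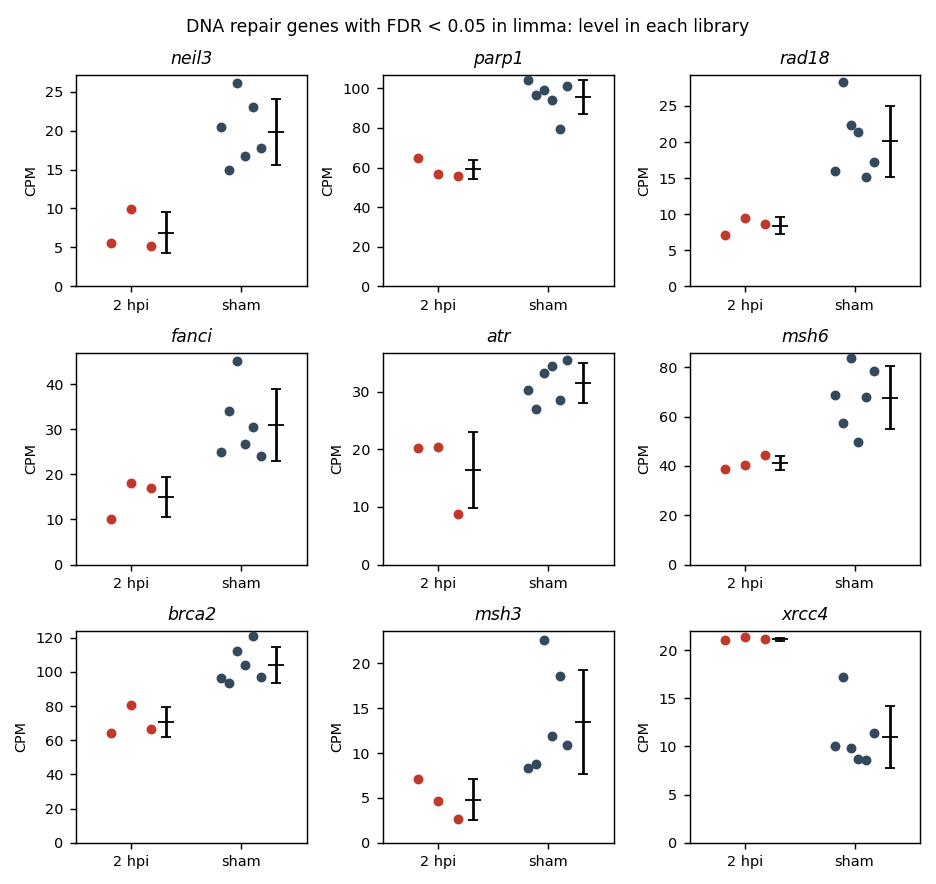
CPM in each library (points) with mean and SD (bars) at 2 hpi (n = 3, left) and in sham (n = 6, right) for the 9 DNA repair genes with FDR<0.05 in limma. In each panel the 3 points at 2 hpi are clear of the 6 sham points, above them for *xrcc4* and below them for the other genes.

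The Fanconi anaemia genes had the lowest median of the role groups, at -0.93, with 7 of the 8 genes tested below 0 (87.5%, against 52% of all genes). None passed FDR<0.01 in limma (against 2.68% of all genes), and 5 were lower at an unadjusted p below 0.05 (62.5%, against 8.61%). *fanci* alone was called by DESeq2 and none by edgeR or limma-voom. FANCI and FANCD2 form the clamp that closes on DNA once the core complex has ubiquitinated it. *fanci* (ENSDARG00000026224) had 10, 18 and 16.9 CPM at 2 hpi, and 24.1 to 45.2 CPM in sham with a median of 28.6 CPM. The log2FC was -1.03 (standard error 0.25, FDR = 0.0141 in limma), and -0.77 without replicate 1 at 2 hpi (FDR = 0.122). It overlaps *polg* in the RefSeq annotation, which had a log2FC of -0.52 (FDR = 0.332 in limma). *fancd2* (ENSDARG00000053574) had 12.6, 13.5 and 16.1 CPM at 2 hpi, and 16.9 to 29.0 CPM in sham with a median of 25 CPM. Both partners were thus below every sham library, by a log2FC of -0.77 for *fancd2* (standard error 0.23, FDR = 0.0586 in limma).

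Within the core complex, the genes did not all take the same value. *fancc* had 3.64, 7.45 and 7.18 CPM at 2 hpi and 8.96 to 14.6 CPM in sham, with no overlap and a log2FC of -0.91 (FDR = 0.121 in limma). *fancg* had 1.21, 8.07 and 6.16 CPM at 2 hpi and 5.29 to 17.5 CPM in sham. Its log2FC of -1.34 rested on replicate 1, without which it was -0.62. *fance* had a log2FC of -1.01 (FDR = 0.221 in limma). *fancb* had -0.95, with a wide interval of -2.21 to 0.30 and at most 1.21 CPM at 2 hpi. In contrast, *fancl*, the ubiquitin ligase subunit, had -0.27 (interval -0.82 to 0.28) and *FANCA* had 0.01 (interval -0.71 to 0.73). Summed over the 10 members of the group, the level was 48.6, 80.1 and 77.6 CPM at 2 hpi and 92.3 to 142 CPM in sham.

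In mismatch repair, all 7 genes tested had a log2FC below 0 (against 52% of all genes), with a median of -0.52. MSH6 is a subunit of the complex that binds single mismatches, and MSH3 of the one that binds longer loops. *msh6* (ENSDARG00000104541) had 38.7, 40.2 and 44.3 CPM at 2 hpi, and 49.7 to 83.6 CPM in sham with a median of 68.4 CPM. *msh3* (ENSDARG00000063276) had 7.14, 4.66 and 2.64 CPM at 2 hpi, and 8.33 to 22.6 CPM in sham with a median of 11.4 CPM. Neither overlapped with sham. The log2FC was -0.69 for *msh6* (standard error 0.18, FDR = 0.0203 in limma) and -1.39 for *msh3* (standard error 0.38, FDR = 0.0293 in limma), so that both passed 0.05 but not 0.01. *msh6* overlaps *fbxo11a* in the RefSeq annotation, a name whose entries had log2FC values of 0.23 and 0.11 (FDR = 0.569 and 0.804 in limma). For *msh6* the FDR was 0.0896 without replicate 1 and 0.065 without replicate 2 at 2 hpi. For *msh3* it was 0.182 without replicate 4 and 0.0699 without replicate 2 at 2 hpi, 0.052 to 0.0716 without sham replicates 3, 4 or 5, and 0.109 in limma-voom.

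Of the genes that act after recognition, *pms2*, a nuclease subunit, had a log2FC of -0.13 (95% interval -0.80 to 0.54), *mlh3* had -0.16 and *pms1* had -0.80 (FDR = 0.184 in limma). The difference between the recognition and the processing genes was not tested.

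Homologous recombination and break resection formed the group with the most genes, 16. Of these, 14 had a log2FC below 0 (87.5%, against 52% of all genes), with a median of -0.43. None passed FDR<0.01 in limma (against 2.68% of all genes), and 4 were lower at an unadjusted p below 0.05 (25%, against 8.61%). *brca2* alone was called by DESeq2 and none by edgeR or limma-voom. *brca2* (ENSDARG00000079015), which acts in strand exchange at broken DNA, had 64.2, 80.7 and 66.7 CPM at 2 hpi, and 93.3 to 121 CPM in sham with a median of 101 CPM. The groups did not overlap, with a log2FC of -0.56 (standard error 0.14, FDR = 0.0222 in limma). The FDR was 0.117 without replicate 1 at 2 hpi, 0.101 without replicate 4 at 2 hpi and 0.0519 without sham replicate 5.

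Genes whose products assist strand exchange included *rad51b*, which had 41.3 to 43.0 CPM at 2 hpi and 32.1 to 54.7 CPM in sham, with a log2FC of 0.03 (interval -0.37 to 0.43). On the same scale, *rad51c* had -0.28 and *rad51d* had -0.07. The MRE11-RAD50-NBN complex, which senses broken ends, had log2FC values of -1.04 for *mre11a*, -0.59 for *rad50* and -0.24 for *nbn*, and none passed the test. *rad54b* stood out for its spread, with 28.4 CPM in replicate 2 at 2 hpi, 8.35 and 10.9 CPM in the other libraries at 2 hpi, and 4.23 to 25 CPM in sham.

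End joining was the one role group with a median above 0, at 0.09 over the 3 genes that the name pattern took in. *xrcc4* (ENSDARG00000010732), the scaffold of DNA ligase IV, had 21.0, 21.3 and 21.1 CPM at 2 hpi, and 8.59 to 17.2 CPM in sham with a median of 9.92 CPM. The libraries at 2 hpi were nearly equal and all above the highest sham library, replicate 2. The log2FC was 0.95 (standard error 0.28, FDR = 0.0456 in limma), which passed 0.05 but not 0.01. When 1 library was left out, the log2FC was 0.90 to 1.09, and the FDR stayed under 0.05 without sham replicate 2 (0.0246) and lay at 0.0512 to 0.137 without any other library. It was 0.0523 in edgeR, 0.0174 in DESeq2 and 0.0363 in limma-voom. The Ku genes, whose products bind broken ends first, had log2FC values of 0.09 for *xrcc5* (interval -0.34 to 0.51) and -0.36 for *xrcc6* (interval -0.95 to 0.23), and that of *xrcc5* was -0.03 when libraries were scaled by their totals. Outside the name pattern, the end joining gene *prkdc* had a log2FC of -0.57 (FDR = 0.0406 in limma) and lay below all sham libraries at 2 hpi. Other genes of this pathway had -0.47 for *polm*, -0.40 for *lig4*, -0.06 for *poll*, 0.27 for *dclre1c* and 0.34 for *nhej1*.

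Nucleotide excision repair was the role group with values closest to 0. Of 12 genes tested, 8 had a log2FC below 0 (66.7%, against 52% of all genes), with a median of -0.06. None passed FDR<0.01 in limma (against 2.68% of all genes), edgeR, DESeq2 or limma-voom. At an unadjusted p below 0.05 in limma, 0 were lower (against 8.61% of all genes) and 0 higher (against 8.77%). The helicase gene *ercc2* had 21.1 ± 9.12 CPM at 2 hpi (SD, n = 3) and 21.1 ± 8.11 CPM in sham (SD, n = 6). The nuclease pair *ercc1* and *ercc4* had 95% intervals of -0.77 to 0.76 and -0.78 to 0.79. *ercc6*, which starts repair at stalled RNA polymerase, had 46.6, 36.8 and 55.9 CPM at 2 hpi and 29.0 to 65.4 CPM in sham. The damage sensor *xpc* had a log2FC of -0.29 (interval -0.94 to 0.36), and the other TFIIH helicase gene, *ercc3*, had the lowest, -0.62 (interval -1.24 to 0.00). The 95% interval lay between log2 values of -1 and 1 for 8 of these 12 genes, and for 34 of all 73 members, against 48.8% of all genes tested. The difference between this group and the others was not tested.

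**Figure D3:**
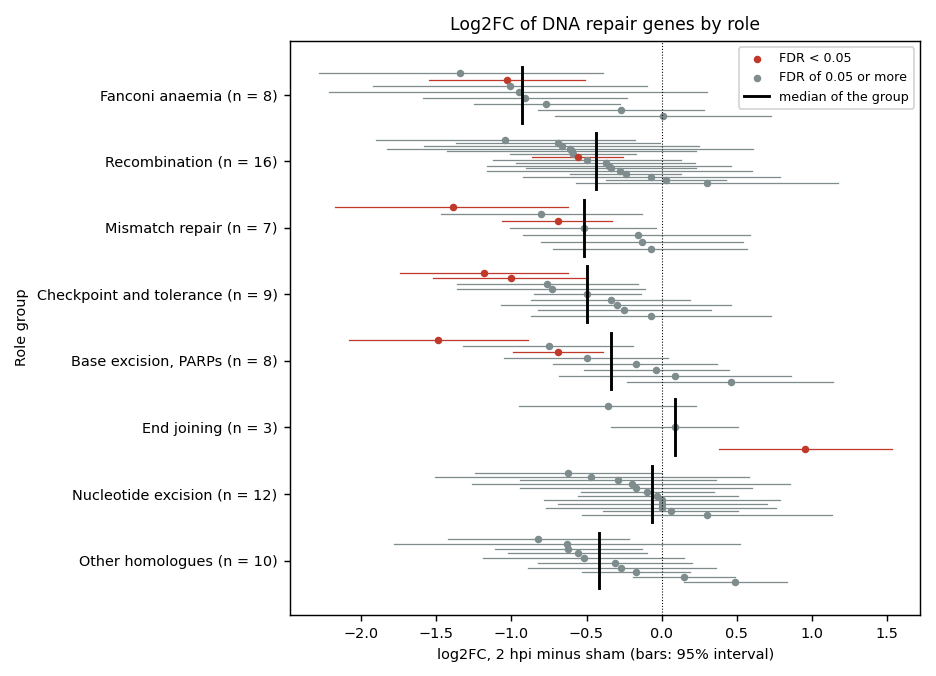
Log2FC of each DNA repair gene (points, horizontal axis) with its 95% interval (bars) by role group, with the group's median as a black line and genes with FDR<0.05 in red. The medians lie at -0.93 for the Fanconi anaemia genes, -0.06 for nucleotide excision repair and 0.09 for end joining.

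The name pattern also took in 10 genes whose products are better known for other roles. Of these, 8 had a log2FC below 0 (80%, against 52% of all genes). At FDR<0.01, none passed in limma (against 2.68% of all genes), edgeR, DESeq2 or limma-voom. At an unadjusted p below 0.05 in limma, 3 were lower (30%, against 8.61% of all genes) and 1 was higher (10%, against 8.77%). *rad54l2*, which encodes a helicase that binds the androgen receptor in mammals, had 82.5, 81.7 and 97.2 CPM at 2 hpi, above the sham range of 48.3 to 71.6 CPM, with a log2FC of 0.49 (FDR = 0.0894 in limma). *parp12b* and *PARP10*, related to mammalian enzymes that transfer single ADP-ribose units, lay below all sham libraries, with log2FC values of -0.82 and -0.56 (FDR = 0.111 and 0.17 in limma), while *parp12a* had 0.15 (interval -0.19 to 0.49). *PARP10* overlaps *spag1a* in the RefSeq annotation, which had a log2FC of 0.60 (FDR = 0.00778 in limma). *ercc6l*, whose product acts on DNA bridges in anaphase, had -0.62 (FDR = 0.154 in limma). Without these genes, 52 of the remaining 63 members had a log2FC below 0 and the median was -0.35.

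The libraries at 2 hpi were not equal among themselves. Replicate 1 had the lowest of the 3 values for 32 of the 73 members, replicate 4 for 24 and replicate 2 for 17. Replicate 2 had the highest of the 3 for 34 members. In sham, the coefficient of variation of a member was 7.64% to 118% with a median of 29.4%. Sham replicate 3 was the highest of the 9 libraries for 16 members and the lowest for 8, and sham replicate 5 was the highest for 14.

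Repair genes outside the name pattern were compared as a second list, in which 100 genes were tested. The list includes genes that also act in DNA replication, such as *pcna*, *fen1*, *lig1* and *rpa1*, so it is not separate in function from the replication list below. Of the 100 genes, 7 fell (7%, against 0.593% of all genes) and 1 rose (1%, against 2.09%) with an FDR<0.01 in limma. A log2FC below 0 was found for 76 (76%, against 52% of all genes), and the median was -0.32. The 4 lowest p-values of the list were those of *rev3l*, the catalytic subunit of a translesion polymerase (36.7 ± 3.72 CPM at 2 hpi, n = 3, and 71.9 ± 11.6 CPM in sham, n = 6, SD; log2FC -0.95), *rif1*, which protects broken ends from resection (log2FC -0.74), *tonsl*, which acts at stalled forks (log2FC -1.47), and *dna2*, a nuclease of end resection (log2FC -1.06). Each of these lay below all sham libraries at 2 hpi. The gene that rose, named after its value was seen, was *polq*, the polymerase of end joining by short homologies, with 363 ± 52.4 CPM at 2 hpi (SD, n = 3) and 234 ± 41.4 CPM in sham (SD, n = 6; log2FC 0.64, FDR = 0.0074 in limma). The number that fell was 2 without replicate 1 or replicate 4 at 2 hpi, 3 without replicate 2 at 2 hpi or sham replicate 4, and 4 without sham replicates 1, 5 or 6.

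Genes of DNA replication were also lower at 2 hpi. Of 52 tested, 8 fell (15.4%, against 0.593% of all genes) and 0 rose (against 2.09%) with an FDR<0.01 in limma. At an unadjusted p below 0.05, 30 were lower (57.7%, against 8.61% of all genes) and 0 higher (against 8.77%). A log2FC below 0 was found for 49 (94.2%, against 52% of all genes), with a median of -0.54. Examples were *pole*, the leading strand polymerase (33.2 ± 1.98 CPM at 2 hpi, n = 3, and 61.7 ± 4.73 CPM in sham, n = 6, SD; log2FC -0.88), and the helicase subunit genes *mcm2* (log2FC -1.01) and *mcm5* (-0.78). The number that fell was 2 without replicate 1 at 2 hpi, 3 without replicate 4 at 2 hpi, 4 without sham replicate 5 and 5 without replicate 2 at 2 hpi or sham replicates 3 or 6. In the G2/M and mitosis list, 28 of the 29 genes tested had a log2FC below 0 (96.6%, against 52% of all genes), and the median was -0.28. At FDR<0.01, 0 passed in limma (against 2.68% of all genes), edgeR, DESeq2 or limma-voom. At an unadjusted p below 0.05 in limma, 8 were lower (27.6%, against 8.61% of all genes).

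In the 3 libraries at 2 hpi, the median log2 difference from the sham mean was -0.44, -0.33 and -0.30 for the repair genes and -0.78, -0.40 and -0.55 for the replication list, and replicate 1 was the lowest for both. For the G2/M list the values were -0.69, 0.10 and -0.13, so that replicate 2 lay above the sham mean. The part of replicating cells in the lower level of the repair genes was not tested.

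**Figure D4:**
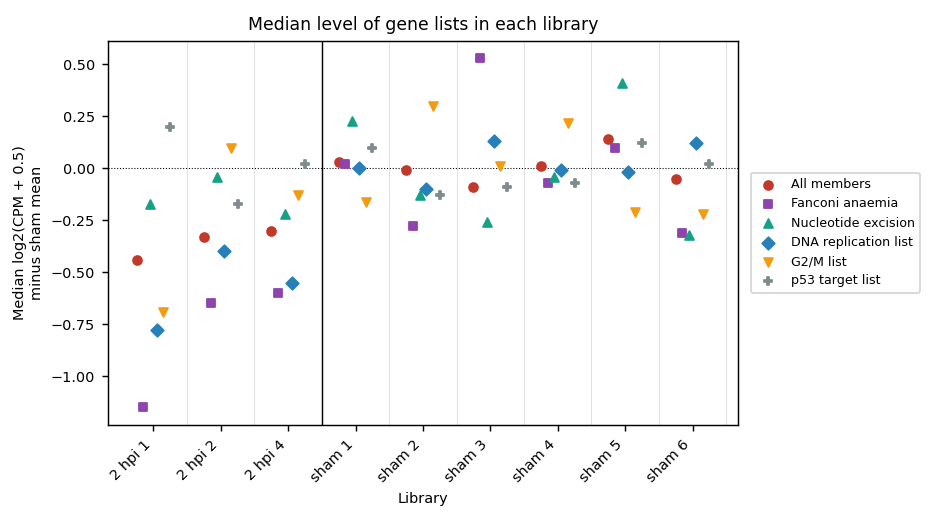
Median log2(CPM + 0.5) minus the sham mean over the genes of each list (vertical axis, one symbol per list) in each library (horizontal axis, 2 hpi left and sham right). The medians of the 73 repair genes, the Fanconi anaemia genes and the replication list lie below 0 in the 3 libraries at 2 hpi, whereas the p53 target list lies between -0.17 and 0.20.

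The last list held targets of p53, the transcription factor that DNA damage activates. Of 25 tested, which include the member *xpc*, 1 fell (4%, against 0.593% of all genes) and 0 rose (against 2.09%) with an FDR<0.01 in limma. A log2FC above 0 was found for 15 and below 0 for 40%, against 52% of all genes, and the median was 0.05. At an unadjusted p below 0.05, 2 were lower (8%, against 8.61% of all genes) and 3 were higher (12%, against 8.77%). At FDR<0.05, 1 was lower (4%, against 1.96%) and 2 were higher (8%, against 3.55%). The gene that fell was *sesn1*, which encodes a stress-induced inhibitor of mTORC1 signalling, with 128 ± 12.6 CPM at 2 hpi (SD, n = 3) and 321 ± 35 CPM in sham (SD, n = 6; log2FC -1.32, FDR = 2.96e-07 in limma). The genes higher at FDR<0.05, named after their values were seen, were *ccng1*, a cyclin G gene, with 512 ± 24.4 CPM at 2 hpi (SD, n = 3) and 382 ± 41.5 CPM in sham (SD, n = 6; FDR = 0.0225 in limma), and the kinase gene *plk3*, with 61.9 ± 2.67 CPM at 2 hpi (SD, n = 3) and 38.7 ± 8.24 CPM in sham (SD, n = 6; FDR = 0.0293 in limma). Both lay above all sham libraries at 2 hpi. Among the other targets, *mdm2* had a log2FC of 0.13 (FDR = 0.771 in limma) and *cdkn1a* had -0.66 (FDR = 0.436). *sesn3* had -0.67 (FDR = 0.0615 in limma) and lay below all sham libraries at 2 hpi.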

How the data were processed

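Per the labels and methods, the RNA was amplified before library preparation (Ovation kit). Trimming used cutadapt 1.9, alignment STAR 2.5.2b on GRCz10, and exon counting featureCounts 1.5.1. The deposited signal is CPM that the authors scaled with TMM factors in edgeR 3.20.1 after removing genes near 0; annotation release and strand setting are not given in the sources used here. The table's columns of group mean, fold change, p-value and FDR were not used. Dividing by the step of 1 read gave whole reads for 100% of values (tolerance 0.01).

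log2(CPM + 0.5), which understates changes of low genes, was fitted by condition with limma 3.58.1 (trend) over the 16347 genes that averaged 1 CPM or more over 9 libraries, with Benjamini-Hochberg adjustment and FDR<0.01. Count tests were planned had raw counts been deposited; edgeR 4.0.16, DESeq2 1.42.0 and limma-voom on recovered reads are alternatives. Exact permutation tests were two-sided over 84 splits and are unadjusted. For members called on the same libraries they add no separate support. The same permutation p of 0.0119 was found for *chek2*, which had an FDR of 0.147 in limma. On simulated data of 16347 genes for this comparison, limma recovered 34% of genes changed by 1 and 65% of those changed by 2 on the log2 scale.

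Members and lists were chosen with earlier results of these data known. The rule for named genes took the members at FDR<0.01, those of lowest p up to 20, the 3 of highest mean CPM, the highest of each role group, those averaging under 1 CPM, and at most 4 genes called per list, lowest p first. Other members were named after their values were seen, to describe each role, and results of some members are not reported here. In the RefSeq gene table, 74 of 76 members were matched and 27 overlapped another gene. Of the members named by the rule, these were *neil3*, *parp1*, *atr*, *atm*, *chek2*, *PARP10*, *parp12a*, *fanci*, *msh6* and *ercc6*.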

Additional observations from a re-analysis of the deposited data

Results flagged for a closer look

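In the sham group, 7 of the 73 repair genes tested had 1 library far from the other 5 by the gap to its nearest neighbour relative to the group's range (Dixon's test), and chance flags about 1 in 20 groups. Sham replicate 3 was the library in 4 of them. It had 63 CPM of *xrcc1* against 27.1 to 39.8 CPM in the other sham libraries, 61.4 CPM of *parp16* against 49.9 to 54 CPM, and 9.15 CPM of *fancb* against 0.836 to 1.69 CPM. It also had the lowest level of *wrn*, at 16.2 CPM against 34 to 44.1 CPM. Sham replicate 2 had 17.2 CPM of *rad1* against 4.83 to 9.42 CPM and 17.2 CPM of *xrcc4* against 8.59 to 11.4 CPM. Sham replicate 6 had 45.1 CPM of *parp2* against 22.8 to 31.1 CPM.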

How the results depend on the processing

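The 3 repair genes called, all lower at 2 hpi, were the same under filterByExpr, a minimum of 5 CPM, pseudocounts of 0.1 and 1, and RLE or upper quartile scaling. Scaling by library totals gave 7, DESeq2 8, limma-voom 1 and FDR<0.05 9, of which 8 were lower and 1 higher, while no filter and edgeR each gave 2, without *rad18*. The median of the repair genes was -0.46 under library totals. Of all genes, 438 were called, 97 lower and 341 higher. Genes lower numbered 61 with no filter, 61 in edgeR, 191 under library totals, 230 of 740 in DESeq2, 43 in limma-voom and 320 of 900 at FDR<0.05, which gave 580 higher. The other repair list had 4 lower with no filter, 4 in edgeR, 3 in limma-voom and 14 at FDR<0.05. The replication list had 4 with no filter, 4 in edgeR, 14 under library totals, 13 in DESeq2, 3 in limma-voom and 15 at FDR<0.05.

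Leaving out 1 library at a time gave 224 to 487 genes called, 41 to 108 lower and 182 to 379 higher. Repair genes called numbered 0 to 3, those at an unadjusted p below 0.05 and lower 16 to 25, those below 0 55 to 63, and their median was -0.47 to -0.34. The other repair list had 2 to 6 lower and the replication list 2 to 10. The log2FC of *ercc6* changed sign to -0.06 under library totals and ranged from -0.08 to 0.21 without 1 library, at -0.06 without sham replicate 3. That of *xrcc5* changed sign to -0.03 under library totals and ranged from -0.07 to 0.26. The causes of these changes were not tested, and fits without a library also hold fewer samples.

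Same-numbered libraries at 2 hpi and in sham correlated by 0.12, 0.11 and 0.02 in their deviations from the group means. For RT-qPCR, the paper compared injured and sham cDNA samples made on the same day, and 3 of its data points came from RNA-seq samples. The sources do not say that a replicate number marks a shared day or clutch, so the numbers were not taken as pairs. Any pairing by day is thus not taken up in the main fit. With the replicate block, 619 genes and the same 3 repair genes were called, the median of the repair genes was -0.46 and 2 G2/M genes were lower. Its difference between groups rests on replicates 1, 2 and 4 alone, because sham replicates 3, 5 and 6 have no library of their number at 2 hpi. The block thus also drops these sham libraries from the comparison, and which of the changes come from that was not tested. At FDR<0.05 the block left out *msh6* (log2FC -0.50, FDR = 0.121), *msh3* (-1.01, 0.127), *brca2* (-0.48, 0.0743) and *xrcc4* (0.85, 0.118), and among the genes named by the rule it took in *atm* (FDR = 0.0164), *rad50* (0.0275), *ercc6l* (0.0344) and *fancd2* (0.0398). Replicates 1 and 2 at 2 hpi correlated best with their own number and replicate 4 did not. With a median half-width of 0.62 for the log2 interval, smaller differences were often not detectable at this depth and number of libraries.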
